A study of Mus musculus with 12 samples.

Results

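The genes described here encode the machinery of MHC class II antigen presentation, measured in whole mouse adrenal glands by polyA-selected RNA sequencing. They were chosen by name as a list of 7: the chains H2-Aa, H2-Ab1 and H2-Eb1, the invariant chain Cd74, the peptide-loading subunits H2-DMa and H2-DMb1, and the transactivator Ciita. All 7 were found among the 24421 genes of the deposited table. The study compared 4 Abcg1 cKO glands with a combined group of 8, made of 4 control and 4 Abca1 cKO glands, to learn what loss of the cholesterol exporter Abcg1 does to the adrenal. By the default of the methods, mice were 2-month-old females on a mixed sv129-C57BL/6 background. Both cKO groups carried the Cre recombinase inserted at the aldosterone synthase locus (Cyp11b2tm1.1(cre)Brlt) and active in steroidogenic cells of the cortex. Abcg1 cKO mice had both conditional Abcg1tm1Tall alleles, from which Cre removes the third exon. Abca1 cKO mice had both conditional Abca1tm1Jp alleles. Controls carried Cre alone according to the series' design, while the methods also admit littermates with 1 of the 2 conditional alleles and do not say whether those had Cre. The locus that drives Cre belongs to cells of the cortex and not to the immune cells that usually carry class II, and recombination in immune cells was not measured in these data.

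MHC class II molecules are paired alpha and beta chains that show peptides from engulfed material to CD4 T cells. In the endoplasmic reticulum they assemble on the invariant chain, whose remnant is later exchanged for a peptide with the help of H2-DM. CIITA switches the whole set on, together with RFX, CREB and NF-Y proteins that sit on X and Y boxes close to each start site. Dendritic cells, B cells and many macrophages keep the pathway on, and interferon gamma can induce it in other cells. Tissue macrophages and dendritic cells lie between the steroidogenic cells of the adrenal.

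X and Y boxes could be looked up for the members with an entry in the RefSeq promoter table of GRCm38.p6, which holds H2-Aa, H2-Eb1, H2-DMa and H2-DMb1, 4 of the 7. Upstream windows of H2-Eb1 and H2-Aa are printed because they belong to abundant chains with lower means in Abcg1 cKO glands. Capitals mark matches to the X box letters AGNNACNGATG or the Y box letters TGATTGG, searched on both strands of the 250 bases before each start, with no overlap between the motifs.
H2-Eb1: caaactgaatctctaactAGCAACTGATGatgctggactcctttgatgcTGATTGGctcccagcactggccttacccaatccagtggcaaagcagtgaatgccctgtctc
H2-Aa: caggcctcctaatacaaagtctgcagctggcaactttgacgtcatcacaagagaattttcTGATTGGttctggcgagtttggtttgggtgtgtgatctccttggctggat
The H2-Eb1 window is chr17:34305757-34305866 on the plus strand and the H2-Aa window chr17:34287824-34287933 on the minus strand. Each is 110 bases long and ends at the base before the RefSeq start, outside annotated exons.

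In H2-Eb1 the X box began 92 and the Y box 61 bases before the start. H2-DMb1 held AGTAACTGATG at 95 and TGATTGG at 63 bases before its start. The distance between the box starts was thus 31 bases in H2-Eb1 and 32 in H2-DMb1, and it was 31 in H2-Eb2, a related chain that is not a member. It was 96 bases in H2-Oa, the remaining gene with both boxes among the class II promoters searched. H2-Aa matched the Y box alone, 50 bases before its start. Neither of the 2 annotated starts of H2-DMa held either motif as spelled here. Among all 32851 RefSeq promoters listed, 0.816% held the X box, 7.23% the Y box and 0.0517% both. The motif letters were chosen after the promoters had been read, so these shares are no independent background for the matches. These matches describe letters in a window, and binding was not measured.

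The values are the authors' mean normalized counts, gene counts divided by DESeq2 size factors and averaged over the libraries of a group. A group mean carries no spread, so no difference below has an error or a test, and none can be said to exceed the variation between animals. Ratios are Abcg1 cKO over the combined group, on the log2 scale after adding 1 to each mean, and where a pair of means is given without group names the Abcg1 cKO mean comes first. A gene counted as lower or higher past 1.2-fold when this value lay at or beyond 0.26 in either direction. The study used the same fold together with a cutoff on the adjusted p-value, which was not applied here. Genes with a mean under 10 over the 12 libraries were left out of counts, which kept 14305 genes and all 7 members.

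The classical chains had lower means in Abcg1 cKO glands, by nearly the same ratio. H2-Ab1, the beta chain of the I-A molecule, averaged 1962 normalized counts with Abcg1 cKO against 2429 for the combined group (ratio 0.808, log2 ratio -0.31). H2-Aa, the alpha chain that pairs with it, stood at 3325 against 4114 (ratio 0.808, log2 ratio -0.31). H2-Eb1, the beta chain of the I-E molecule, stood at 2521 against 3059 (ratio 0.824, log2 ratio -0.28). All 3 lay past the cutoff, and H2-Eb1 was the closest to it with a combined mean 1.21 times that of Abcg1 cKO. The partner of H2-Eb1, annotated as H2-Ea-ps, was listed at 0 in both groups. C57BL/6 mice are known to carry an inactive gene for the I-E alpha chain and so to lack I-E on the surface.

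Cd74, the invariant chain, had the highest mean normalized count of the members, not corrected for length, 3701 in Abcg1 cKO against 4537 (ratio 0.816, log2 ratio -0.29). Per length, Cd74 was 2.52 times H2-Aa in Abcg1 cKO glands and 2.49 times in the combined group, and H2-Aa was 1.15 times H2-Ab1 in both. The last ratio depends on the length used and turns to 0.637 in both groups with the longest transcript. These proportions between Cd74 and the I-A chains hardly differed between the groups, although their errors are not known.

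Ciita, the transactivator of the set, had the lowest mean of the members, with 68.2 in Abcg1 cKO against 84.4 (ratio 0.808, log2 ratio -0.30). Its ratio, rounded, was thus that of H2-Aa and H2-Ab1, but at far lower counts and with no known error. With 10 added to each mean in place of 1, the log2 ratio was -0.27 for Ciita. It was -0.31 for H2-Aa and H2-Ab1 in that setting. Ciita lies on chromosome 16 from 10480059 to 10528418 of GRCm38, apart from the cluster of H2 genes on chromosome 17. Its exons share 329 bases with exons of Dexi on the opposite strand, 3.45% of the Ciita exon length. Dexi had a log2 ratio of -0.04.

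The loading subunits did not lie past the cutoff. H2-DMa, the alpha subunit of the peptide exchange factor, stood at 190.1 against 215.6 (ratio 0.882, log2 ratio -0.18). H2-DMb1, its beta subunit, stood at 195.3 against 192.9 (ratio 1.01, log2 ratio 0.02) and was the only member with a higher mean in Abcg1 cKO. That direction flips to a log2 ratio of -0.03 when the group means are rescaled to the same sum.

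Counting limits touch both H2-DM genes. Of the 50-base words in annotated H2-DMb1 transcripts 22.7% also occur in H2-DMb2, a neighbouring copy, and a read from such a stretch alone cannot be placed uniquely. H2-DMb2 itself had means of 12.1 and 13.6. Exons of Brd2 on the opposite strand cover 10.4% of the H2-DMa exon length, and Brd2 had far higher counts, with means of 4175 and 3514. The library kit keeps strand, but whether the counting used it is not stated, so reads of H2-DMa and Brd2 may not be fully separated. H2-Ab1, H2-Eb1, Cd74 and Ciita shared no 50-base word with another gene, and H2-Aa shared 0.488% of them.

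**Figure D1:**
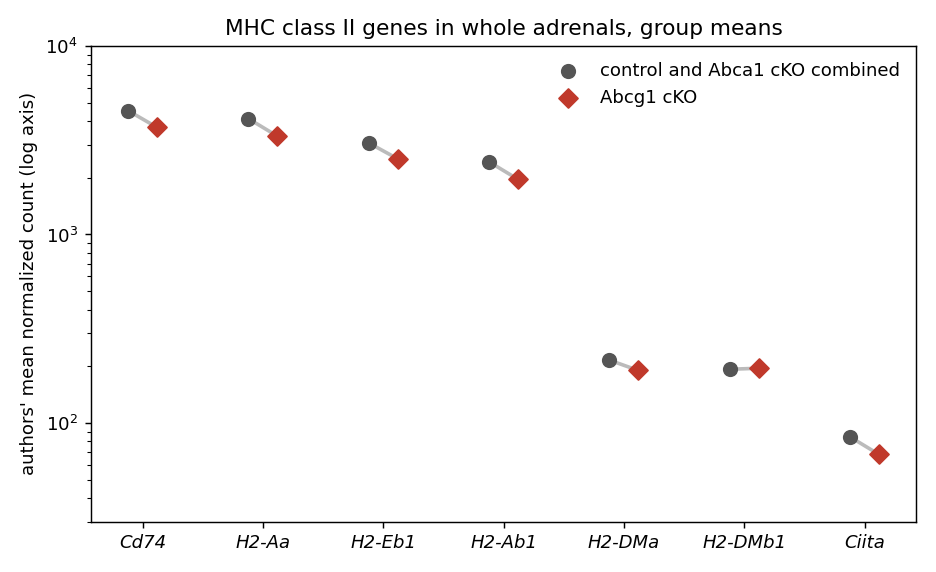
Authors' mean normalized count (log axis) of each class II gene in the combined group of control and Abca1 cKO (grey circles) and in Abcg1 cKO (red diamonds), with a line joining the 2 means of a gene. Cd74, H2-Aa, H2-Eb1 and H2-Ab1 lie between 1962 and 4537, and the Abcg1 cKO mean is the lower one for all genes except H2-DMb1 (195.3 against 192.9), whose direction flips when the group means are rescaled to the same sum.

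As a list, 5 of the 7 members were lower past the cutoff, none was higher and 2 lay within it. Across all genes kept, 12.2% were lower and 10.4% were higher past the same cutoff. Lower genes made up 53.9% of all genes past the cutoff, and 65% of them with group means rescaled to the same sum. The median log2 ratio of the members was -0.29, against 0.0013 over all genes kept. Single members were not at the edge of the distribution, since 9.91% of genes kept had a log2 ratio at or below that of H2-Aa and 11.3% at or below that of H2-Eb1. With a cutoff of 1.5-fold no member was past it. The members are known to share a regulator and, mostly, their cells, so they are not independent of each other.

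The 7 members summed to 11961 normalized counts with Abcg1 cKO against 14632, a ratio of 0.817. This was 0.0633% of all normalized counts in Abcg1 cKO glands and 0.0799% in the combined group. Cd74, H2-Aa, H2-Eb1 and H2-Ab1 made up 96.2% and 96.6% of the sums. In RNA of whole glands, fewer cells that carry class II and less class II RNA per cell cannot be told apart.

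Levels of the members were compared per kilobase of annotated exon (union of GENCODE exons). Cd74 had the highest level, 2702 per kilobase in the combined group, which comes first here, and 2204 in Abcg1 cKO. H2-Eb1 followed with 1574 and 1297, H2-Aa with 1083 and 875, and H2-Ab1 with 946 and 764. A wide step separated these from H2-DMb1 (115 and 116), H2-DMa (62.5 and 55.1) and Ciita (8.85 and 7.15). The order was the same in both groups. Whether neighbours in this order differ beyond their spread is not known. Their order among the chains depends on the length used, since H2-Ab1 moved from rank 4 to rank 2 with the longest transcript (2004 and 1619 per kilobase). Per length, H2-Aa exceeded Ciita by 122 times in both groups. With the longest transcript this became 90.8 times in the combined group and 90.9 times in Abcg1 cKO.

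**Figure D2:**
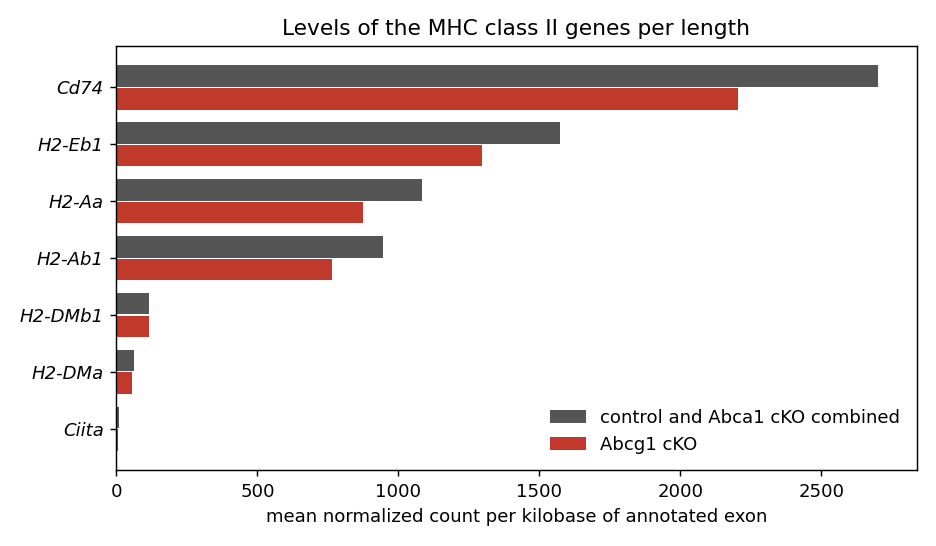
Mean normalized count per kilobase of annotated exon for each class II gene, grey bars for the combined group and red bars for Abcg1 cKO, without error bars because only group means were used. Cd74 leads with 2702 and 2204, and the 2 bars of H2-DMb1 are nearly equal at 115 and 116.

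The class II chains and H2-DM genes lie together on chromosome 17, in a stretch that also holds class I peptide transport and immunoproteasome genes. From H2-Oa to H2-Ea-ps, positions 34092340 to 34344645 of GRCm38, the table held 15 genes, and 13 were kept. Of these, 8 are not members, and none of the 8 lay past the cutoff (median log2 ratio -0.10, with 6 below 0). H2-Ab1 (34257689 to 34269419), H2-Aa (34282744 to 34287823) and H2-Eb1 (34305867 to 34316674) lie together and were the 3 genes of those kept in the stretch past the cutoff. With group means rescaled to the same sum, 2 of the 8 other genes, H2-Ob and Psmb9, were past it as well, each with a log2 ratio of -0.30. H2-DMa (34119541 to 34139101) and H2-DMb1 (34153072 to 34160230) lie at its other end. Between them and the chains are Psmb9, Tap1, Psmb8, Tap2 and H2-Ob, with log2 ratios of -0.25, -0.05, -0.10, 0.05 and -0.26. Cd74 (chromosome 18, 60803848 to 60812652) and Ciita, on other chromosomes, had ratios like those of the chains (log2 ratios of -0.29 and -0.30).

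**Figure D3:**
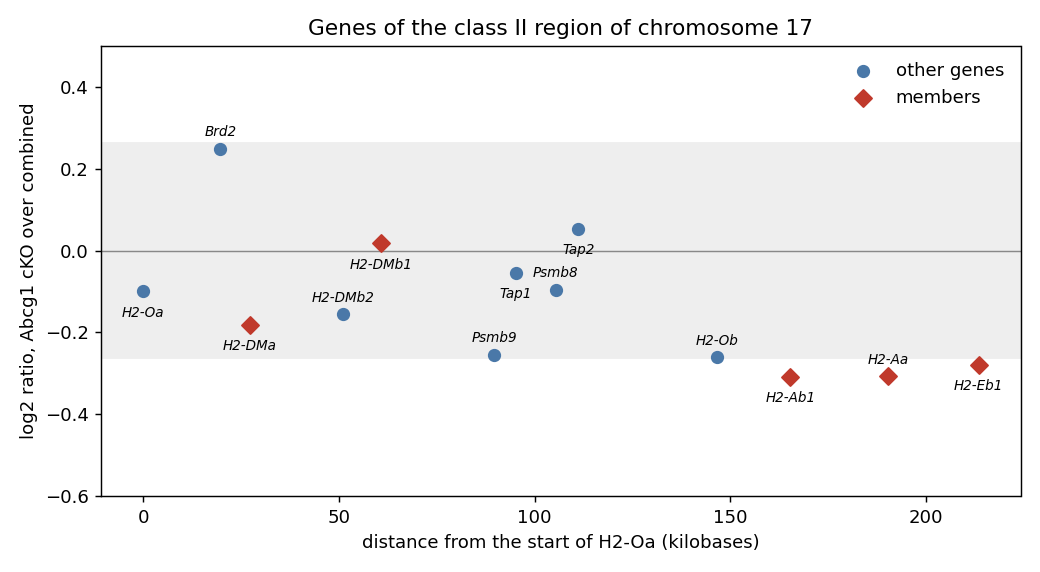
log2 ratio of the group means, Abcg1 cKO over the combined group, for the 13 genes kept in the class II region of chromosome 17, by distance in kilobases from the start of H2-Oa. Red diamonds are members, blue circles other genes, and the grey band holds ratios within 1.2-fold. H2-Ab1, H2-Aa and H2-Eb1 at the right end lie below the band, between -0.31 and -0.28.

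Other class II chains and editors were scarce in the adrenal. Of 5 such genes 3 were kept, and all 3 had lower means in Abcg1 cKO without passing the cutoff. H2-Ob, which with H2-Oa forms the inhibitor of H2-DM, stood at 22.2 against 26.8 (log2 ratio -0.26), just inside the cutoff. It passed the cutoff at -0.30 when the group means were rescaled to the same sum and at -0.27 with a pseudocount of 0.1. H2-Oa stood at 12.6 against 13.6 (log2 ratio -0.10) and H2-DMb2 had a log2 ratio of -0.16. H2-Eb2, with means of 2.11 and 3.70, was not kept.

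The proteases and cofactors that prepare peptides did not show the pattern of the chains. Of 12 genes of class II antigen processing 1 was lower past the cutoff, none was higher and 11 lay within it, with a median log2 ratio of 0.06. Over all genes kept 12.2% were lower and 10.4% higher. The lower gene of this list was Cd83, which protects class II molecules from ubiquitin-driven turnover, with means of 95.8 and 145.6 (log2 ratio -0.60). Ctsb, Ctsd and Ctsl, cathepsins found in most cells, had log2 ratios of 0.21, 0.16 and -0.01. Ctss, the cathepsin that trims the invariant chain, and Ifi30, the lysosomal thiol reductase, were singled out after their values were seen and had log2 ratios of -0.01 and -0.08.

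Factors that act on class II promoters had ratios in both directions. Of 11 such genes 2 were lower and 1 was higher past the cutoff, with a median log2 ratio of -0.04. Over all genes kept 12.2% were lower and 10.4% higher, and these counts are not far from those shares. Irf1, an interferon-induced activator of Ciita, stood at 712 against 921 (log2 ratio -0.37), and Nfyb, a subunit of the Y box factor, had a log2 ratio of -0.27. Irf8, a factor of dendritic cells and macrophages, was the higher one, at 1290 against 923 (log2 ratio 0.48). Creb1, which binds the X box region, and Nfyc, another Y box factor subunit, had some of the highest counts of the rest, with log2 ratios of -0.04 and -0.01. Rfx5, Rfxap and Rfxank, which form the X box complex and were also singled out after their values were seen, had log2 ratios of 0.06, -0.16 and -0.06.

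The class I pathway shows peptides from inside the cell. Of its 13 genes 1 was higher, 1 was lower and 11 lay within the cutoff, with a median log2 ratio of 0.09. These counts were near the shares over all genes kept, 10.4% higher and 12.2% lower, and say little about class I. H2-K1, a class I heavy chain, was the higher one at 18408 against 14549 (log2 ratio 0.34), and B2m, its light chain, had a log2 ratio of 0.25. Nlrc5, the class I counterpart of Ciita, was the lower one at 241 against 321 (log2 ratio -0.41). The difference between the class I and class II lists was not tested. Of 18 interferon gamma response genes 7 were lower, none was higher and 11 lay within the cutoff, with a median log2 ratio of -0.12. The same shares over all genes kept, 12.2% lower and 10.4% higher, stand beside these counts. Irf1 is on this list as well as among the promoter factors. The lowest ratios of the list were those of Cxcl10 and Socs1. Cxcl10, a chemokine, stood at 23.8 against 49.8 (log2 ratio -1.03). Socs1, a brake on cytokine signalling, stood at 68.4 against 133 (log2 ratio -0.95). Jak1, a kinase of the receptor, had one of the highest counts of the list and a log2 ratio of 0.07.

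Markers of the cells that carry class II differed unevenly beside the members, and none of the marker genes in the table was listed at 0 in both groups. The counts of markers past the cutoff stand beside shares over all genes kept of 12.2% lower and 10.4% higher. All 8 pan-leukocyte genes had lower means in Abcg1 cKO, 2 of them past the cutoff, and their sum was 3063 against 3548 (ratio 0.863, median log2 ratio -0.23). Cd48 and Cd53, surface proteins of most leukocytes, were these 2 with log2 ratios of -0.41 and -0.32, while Arhgdib and Coro1a, with the highest counts, had -0.18 and -0.14. With group means rescaled to the same sum 4 of the 8 were past the cutoff and the median was -0.28. The macrophage list summed to 19079 against 19664 (ratio 0.970, median log2 ratio -0.03), with 2 of 18 genes lower, 2 higher (1 with rescaled means) and 14 within the cutoff. Lyz2 and C1qb, with its highest counts, had log2 ratios of -0.08 and -0.01. Lyve1, which marks some resident macrophages and also lymphatic vessels, was higher at 152 against 58.6, and Aif1, a macrophage actin-binding protein, was lower at 127 against 163. Of 11 dendritic cell markers 3 were lower, 4 higher and 4 within it. Their sum was 1913 against 1628 with Irf8, which gave most of it, and 623 against 704 without Irf8, the opposite direction. Itgax, which encodes CD11c, was lower at 202 against 285 (log2 ratio -0.49), whereas Flt3 and Cd209a were higher, with log2 ratios of 0.56 and 0.74 at means under 30. Flt3 stood at 24.9 against 16.5 and Cd209a at 29.4 against 17.2.

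Lymphocyte transcripts were few, and the shares over all genes kept were again 12.2% lower and 10.4% higher. Of 8 B cell markers 5 were lower, 2 higher and 1 within the cutoff (median log2 ratio -0.73), with Cd79a at 9.09 against 21.6 and Cd22 at 14.6 against 30.1. The sum of the B cell list went the other way, at 251 against 184, while its ratio was 0.616 without Jchain, a plasma cell gene at 173 against 57.5. With a minimum mean of 50, Jchain alone was left and the median became 1.58. Of 9 T and NK cell markers 6 were lower, 1 higher and 2 within the cutoff, with a median log2 ratio of -0.53 that became -0.01 with a minimum mean of 50. Cd4, the coreceptor that binds class II, stood at 14.0 against 27.5 and Nkg7, a cytotoxic granule protein, at 17.3 against 31.7. Gzma, a granzyme, had a log2 ratio of -0.72. Lck, a T cell kinase, stood at 55.9 against 56.2. The 9 markers summed to 214 against 285. Endothelial markers summed to 15390 against 16517 (ratio 0.932), with 1 of 8, Egfl7, lower past the cutoff (log2 ratio -0.42), and Plvap and Emcn, with the highest counts, at -0.17 and -0.20. The part of any of these cells in the lower class II means was not tested.

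**Figure D4:**
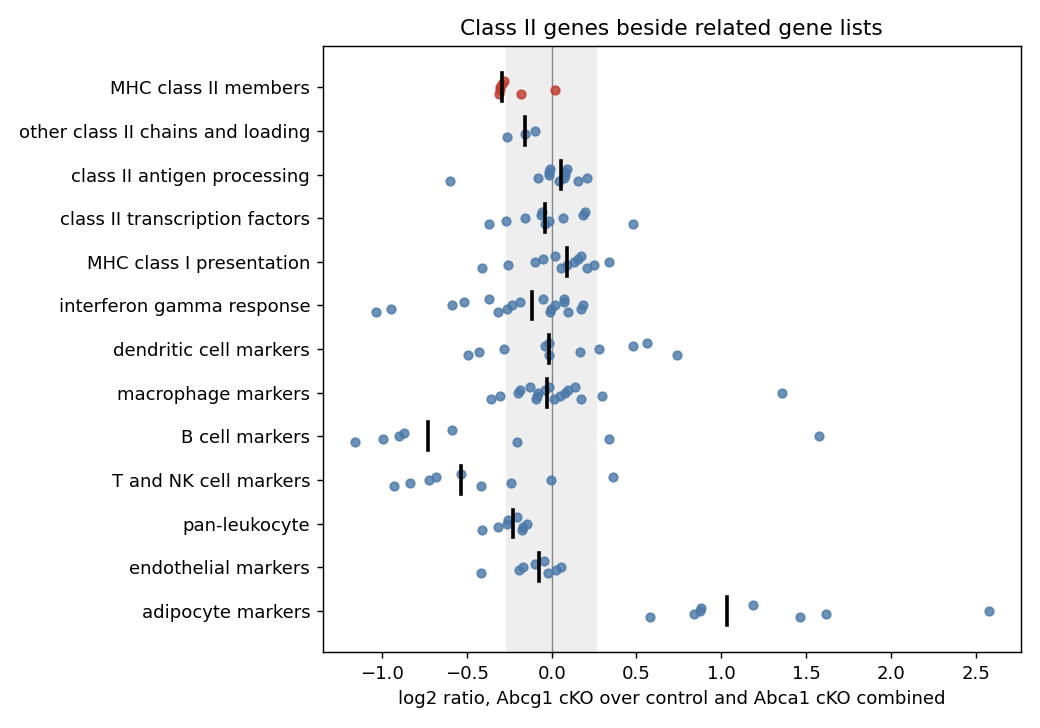
log2 ratio of the group means, Abcg1 cKO over the combined group, for each gene with a mean of at least 10 in the class II list (red) and 12 related lists (blue). Black bars are list medians and the grey band holds ratios within 1.2-fold. The class II median is -0.29, the macrophage median -0.03, the class I median 0.09 and the adipocyte median 1.03.

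The glands expressed their defining genes at high level, with means for Star of 507891 and 374521 and for Hsd3b1 of 434588 and 482180 (both steroidogenic), and for Chgb and Chga, chromaffin granins, of 81136 and 60638 and of 57501 and 44281. Transcripts of other tissue compartments also differed between the groups. All 8 adipocyte markers were higher past the cutoff, with a sum of 44701 against 20253, among them Car3 (log2 ratio 1.62), Cfd (0.87) and the hormone gene Lep (2.58), although the glands had been cleaned of fat. All 6 medulla markers were higher, with a sum of 176405 against 129603 and the catecholamine enzymes Pnmt and Th at log2 ratios of 0.83 and 0.77, and 5 of 10 cortex markers were, with none lower and Akr1b7 at 0.79. With group means rescaled to the same sum 3 cortex markers were higher and 1 was lower. What these shifts contribute to the class II ratios was not tested. Abcg1 itself, counted over the whole gene although a single exon is removed, stood at 249.7 against 305.4 (log2 ratio -0.29), and Abca1 at 10057 against 7791 (log2 ratio 0.37), where the combined group includes the Abca1 cKO glands. Since control and Abca1 cKO were deposited as 1 mean, a difference between these groups in the class II genes could not be seen.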

How the data were processed

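Whole-adrenal RNA of 12 mice was sequenced. The authors' steps, taken from the methods and their processing notes, were bcl2fastq 2.20.0.422, cutadapt 4.0, FastQC 0.11.9 and BBTools for the reads, STAR 2.7.10a for mapping to mm10, HTSeq 0.13.5 for gene counts from unique alignments and DESeq2 1.38.3 for size factors. The signal values used here are group means of normalized counts that the authors deposited. The mean over all libraries equalled the group means weighted 8 to 4. A further 12 columns, 1 for each library, have names that match none of the samples, and 4 hold the authors' own fold changes, their errors and p-values. None of these was used, so the planned test over libraries was not run, and library depths cannot be read from the means.

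Log2 ratios used a pseudocount of 1, a fold cutoff of 1.2 and a minimum mean of 10. List sums run over the genes kept. The code of the ratio and cutoff steps was checked on simulated means, doubled or halved without noise, which says nothing about error in the data. Exons, lengths and positions came from GENCODE M21 (GRCm38, the build of mm10), which need not equal the authors' annotation, and promoters from RefSeq for GRCm38.p6. Tables were handled in Python 3.11.15 with pandas 2.3.3. Named genes were the members, genes of related class II lists past the cutoff with up to 3 of the most abundant, and for other lists the 2 most abundant and the 2 with the largest ratios. A gene that this rule names is not reported here. The members and lists were chosen with earlier results of these data known, and the motifs after the promoters had been read.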

Additional observations from a re-analysis of the deposited data

How the results depend on the processing

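The count of 5 lower members and their median were unchanged in direction and side of the cutoff with pseudocounts of 0.1 and 10, with ratios centred on the median gene, with rescaling to the same sum and with either filter on low values. Adding the other class II genes gave a median of -0.27. With a cutoff of 1.5-fold 0 members were lower, against 467 lower and 370 higher genes in all, and with one of 2-fold 0 members were lower, against 128 and 106. With no filter on low values 3587 genes were lower and 2629 higher, and with a mean of at least 50 there were 1034 lower genes. The B cell median turned to 1.58 with that filter, since 1 gene was left. Lengths of the longest transcript moved levels per kilobase by over 1.5 times for H2-Ab1, Ciita (to 14.1 and 11.4) and H2-DMa (to 107.6 and 94.8). Of the other values of single genes and lists under all alternatives, 516 were classed as the same, 47 as weaker and 9 as stronger. A log2 ratio was classed as the same if it kept its side of the cutoff. A count or a level per kilobase was so classed if it changed by at most 1.5 times. Weaker values lost the cutoff or fell further in count, and stronger ones gained it or rose further. No paired analysis was possible because the sample labels give no pairing. The columns of single libraries could not be matched to samples by name, so no replicate was left out and no count test was run. The group means used here carry neither the error between animals nor the depth.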
